A study of Homo sapiens with 240 samples.

Results

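The 9 genes described here encode stress response transcription factors and their close partners: ATF4, ATF3, ATF5, DDIT3, CEBPB, CEBPG, NUPR1, TRIB3 and JDP2. They were found by gene symbol among the 27234 genes listed in each of 5 tables of TPM values, a level corrected for transcript length and library size, and each symbol had 1 row per table. The tables hold 240 RNA libraries of HEK 293T cells, a human embryonic kidney line, in 80 groups of 3. All 9 passed the filter on low values in every table (3 or more libraries at a TPM of 1 or above).

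The AMPK table compared cells with AMPK WT and AMPK Knock out (KO) genotypes. They were given the AMPK activator 991 or a mitochondrial poison, CCCP, phenformin (Phen) or rotenone (Rot), for 2, 4, 8 or 16 h, or DMSO. The FNIP1 table compared WT FNIP1 with SA5 FNIP1, whose 5 AMPK phosphosites are alanine. Both arms are FNIP1 knockout cells carrying a reintroduced cDNA, and both had 991 for 2, 4, 8 or 16 h. The other tables compared TFEB+TFE3 WT with TFEB+TFE3 Knock out (DKO), ESRRA WT with ESRRA Knock out, and siControl with siPGC1a, a knockdown of PGC1a by siRNA, each with 991 for 2, 4, 8, 16 or 24 h. DMSO libraries exist only at 0 h in each arm, so a change against DMSO cannot be told apart from a change with time in culture. The sources used here state no dose, and they do not say whether an arm is 1 clone or whether replicates are separate cultures. The p-values therefore measure only the spread between these libraries, which may be technical.

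When the translation initiation factor eIF2 is phosphorylated, general protein synthesis falls while the ATF4 message is translated more efficiently; this is the integrated stress response, and kinases that sense amino acid shortage, unfolded protein, double-stranded RNA or haem deficiency feed into it. Signals from poisoned mitochondria reach the same pathway through the protease OMA1. ATF4 binds DNA as a dimer, often with CEBPG or CEBPB, and switches on genes for amino acid uptake and synthesis together with further regulators. Among these are DDIT3 (also called CHOP), ATF3, ATF5, NUPR1 and the pseudokinase TRIB3, while JDP2 is a bZIP repressor related to ATF3. ATF4 and ATF5 are controlled largely at translation, which RNA levels do not report.

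Markers of mature kidney were largely missing although the line is of kidney origin: of 8 in the AMPK table LRP2 alone passed the filter, and UMOD was listed at 0 in every library. LIN28B and NEFL, an embryonic and a neuronal gene known from HEK 293 cells, stood at 11.3 to 25.2 and 12.97 to 36.5 TPM there. The other HEK 293 markers looked at were lower: LHX1 at 0 to 0.145, PAX2 at 0.134 to 1.76 and NEFM at 0 to 9.86 TPM. PRKAA1 RNA separated the AMPK arms (2.15 to 3.73 TPM in KO and 6.03 to 10.6 in WT), whereas PRKAA2, of the other catalytic subunit, overlapped (2.55 to 4.87 and 3.77 to 7.40). PPARGC1A separated the siRNA arms (0.0150 to 0.107 and 0.254 to 0.484), and TFEB, TFE3 and ESRRA overlapped between their arms, so RNA does not check those edits. In 6 libraries the free-text description disagrees with title and tags: 3 WT libraries titled Phen 2 h are described as 991, and 3 titled CCCP 4 h as 16 h. They were placed by title and tags. A pair of SA5 FNIP1 libraries stood apart, replicate 1 under DMSO with FNIP1 at 5.47 TPM against 179 and 172 in the others, and replicate 1 at 8 h with 45.05 against 184 and 179. The SA5 counts and the SA5 changes at 16 h that these libraries move are given with and without them. In RNA from bulk culture, a change in the share of cells that express a gene and a change in RNA per cell cannot be told apart.

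On GRCh38 the tables place ATF4 on chromosome 22, 39520564 to 39522686, ATF3 on chromosome 1, 212565334 to 212620777, ATF5 on chromosome 19, 49929143 to 49933936 and DDIT3 on chromosome 12, 57516588 to 57520517. CEBPB lies on chromosome 20, 50190583 to 50192691, CEBPG on chromosome 19, 33374524 to 33382686, NUPR1 on chromosome 16, 28537341 to 28539174, TRIB3 on chromosome 20, 381306 to 397559 and JDP2 on chromosome 14, 75427806 to 75472701. Each row is 1 whole RefSeq transcript, exons and untranslated regions included. Other JDP2 and CEBPG transcripts were listed in some tables, so levels of these genes are compared only within a table. Whether strand was used in counting is not given in the sources used here, and DDIT3 overlaps MARS and MBD6 on the other strand, while ATF5 overlaps NUP62 and IL4I1. At 16 h of Phen in AMPK WT cells DDIT3 changed by 4.25 on the log2 scale, MARS by 0.60 and MBD6 by 1.03. ATF5 changed by -0.67 where NUP62 and IL4I1 changed by 0.51 and 0.34. CEBPB overlaps CEBPB-AS1, listed at 0.147 to 3.35 TPM. Reads shared by such neighbours cannot be told apart in these tables.

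Promoter sequence from RefSeq (GRCh38.p14) was matched for 8 of the 9 genes, all but NUPR1, as the 250 bases before the RefSeq start site. The 4 shown belong to the trigger of the response, ATF4, to its targets ATF3 and DDIT3 and to its partner CEBPG. They are the only members in whose windows a searched motif was found. Capitals mark TATAAA in ATF4, the C/EBP-ATF composite site TGATGNAAN in ATF3, and CCAAT boxes, which read ATTGG where they lie on the other strand.

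The windows are, 5′ to 3′ along each gene, ATF4 (chr22:39520309-39520558, plus strand), ATF3 (chr1:212565157-212565406, plus strand), DDIT3 (chr12:57520515-57520764, minus strand) and CEBPG (chr19:33373459-33373708, plus strand):
ATF4: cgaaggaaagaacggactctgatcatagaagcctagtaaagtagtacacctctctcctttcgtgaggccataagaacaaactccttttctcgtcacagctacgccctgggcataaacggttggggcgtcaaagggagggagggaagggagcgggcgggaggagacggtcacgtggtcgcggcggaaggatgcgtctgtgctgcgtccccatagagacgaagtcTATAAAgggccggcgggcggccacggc
ATF3: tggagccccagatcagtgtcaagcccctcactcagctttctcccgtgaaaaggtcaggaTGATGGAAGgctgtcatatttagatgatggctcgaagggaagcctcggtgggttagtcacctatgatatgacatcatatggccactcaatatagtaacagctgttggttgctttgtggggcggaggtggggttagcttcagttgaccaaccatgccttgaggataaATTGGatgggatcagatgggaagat
DDIT3: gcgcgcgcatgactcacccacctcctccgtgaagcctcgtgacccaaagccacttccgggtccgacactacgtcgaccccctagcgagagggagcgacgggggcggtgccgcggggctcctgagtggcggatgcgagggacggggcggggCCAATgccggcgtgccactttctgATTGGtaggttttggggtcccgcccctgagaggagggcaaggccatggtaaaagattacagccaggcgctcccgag
CEBPG: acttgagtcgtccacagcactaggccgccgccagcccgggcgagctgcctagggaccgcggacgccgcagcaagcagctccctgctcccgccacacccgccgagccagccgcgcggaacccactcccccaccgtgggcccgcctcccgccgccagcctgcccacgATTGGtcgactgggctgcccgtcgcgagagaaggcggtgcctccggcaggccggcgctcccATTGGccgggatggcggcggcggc

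The composite letters TGATGNAAN, bound by ATF4 or DDIT3 with a C/EBP partner, occurred on either strand in 3.13% of 35116 RefSeq promoter windows of this length and in 1 of the 8, ATF3, at bases -191 to -183 from its start. TATAAA occurred in 10.7% of windows and in 1 of the 8, ATF4, at -27 to -22. CCAAT occurred in 32% of windows and in 3 of the 8: 2 times in DDIT3, 2 times in CEBPG and once in ATF3, none overlapping another motif. The cyclic AMP response element TGACGTCA, present in 1.65% of windows, was in 0 of the 8. A match is a description of letters only, and sites may lie outside these windows.

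Under DMSO the 9 genes spanned a wide range of levels. In AMPK WT cells ATF4 was the highest by far, at 419, 386 and 358 TPM in the 3 libraries. ATF3 followed at 52.99, 29.5 and 35.3 TPM. CEBPG (17.2 ± 0.713, mean ± SD, n = 3), ATF5 (16.2 ± 0.679) and TRIB3 (15.8 ± 0.559) came next, and neighbours in this order overlapped. DDIT3 (6.80 ± 0.247) and CEBPB (5.72 ± 0.536) lay lower without overlap, and JDP2 (1.28 ± 0.236) and NUPR1 (1.12 ± 0.304) overlapped near 1 TPM. Changes below are differences in log2(TPM + 1) ± standard error from limma, called at a Benjamini-Hochberg adjusted p under 0.05 over all genes tested. This scale understates the change of genes as low as NUPR1 and JDP2.

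All the poisons raised ATF4 RNA in AMPK WT cells within 2 h, and it then stayed about 1 higher on the log2 scale. With Phen the 3 libraries stood at 679.7, 763 and 734 TPM at 2 h and 717, 705 and 711 at 16 h (log2 changes 0.90 ± 0.064, adjusted p = 2.7e-19, and 0.87 ± 0.064, adjusted p = 7.6e-21). With CCCP they reached 834, 845 and 851 TPM at 16 h (1.12 ± 0.064, adjusted p = 1.1e-25), and with Rot 835, 849 and 820.3 (1.11 ± 0.064, adjusted p = 3.3e-24). No treated library overlapped DMSO in these comparisons. With 991 ATF4 was at 437, 402 and 359.7 TPM at 2 h and 303, 425 and 401 at 4 h, overlapping DMSO (0.041 and -0.056, neither called). It rose at 8 h to 538, 657 and 651 (0.66 ± 0.064, adjusted p = 2.4e-14) and at 16 h to 775, 781 and 772 (1.00 ± 0.064, adjusted p = 1.4e-22), close to the level under the poisons.

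DDIT3, the CHOP gene, whose product is a partner of ATF4 and is linked to cell death, moved over a far wider range, and its level differed between the poisons. From 7.05, 6.56 and 6.80 TPM under DMSO, Phen took it to 20.7, 21.96 and 24.2 at 2 h, 46.5, 60.01 and 58.4 at 4 h, 86.7, 87.4 and 88.97 at 8 h and 151, 140.4 and 152 at 16 h. The change at 16 h was 4.25 ± 0.081, adjusted p = 5.4e-56, a ratio of mean TPM of 21.7. CCCP gave 46.9, 46.4 and 48.9 TPM at 8 h, its highest time (2.63 ± 0.081, adjusted p = 4e-41), and 39.05, 43.3 and 43.1 at 16 h. Rot gave 16.2, 17.7 and 16.97 TPM at 16 h (1.202 ± 0.081, adjusted p = 6.3e-21), and 991 stood at 21.2, 21.3 and 21.7 (1.52 ± 0.081, adjusted p = 9.4e-27). With 991 DDIT3 was not called at 2 h or 4 h (0.20 and 0.17).

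ATF3, an early bZIP repressor, peaked early with CCCP, and the direction of its change depended on the compound. CCCP raised it from 52.99, 29.5 and 35.3 TPM to 88.7, 93.5 and 91.2 at 2 h (1.24 ± 0.12, adjusted p = 2.2e-13), with 39.3, 46.6 and 45.1 at 16 h (0.19, not called). Phen raised it least at 2 h (0.33) and most at 16 h, to 65.3, 73.3 and 69.9 TPM (0.85 ± 0.12, adjusted p = 4.5e-09). With 991 it was higher at 2 h (0.52) and lower at 8 h, at 21.8, 21.3 and 20.9 TPM (-0.81 ± 0.12, adjusted p = 3.8e-08). Rot raised it at 2 h (0.41) and lowered it at 8 h (-0.44). The DMSO libraries of ATF3 were far apart, as were those of the immediate-early gene FOSB (13.7 ± 10.99 TPM), and what moved FOSB there was not tested as part of the ATF3 values. The 2 h calls under 991, Phen and Rot ended without replicate 2 (adjusted p = 0.09, 0.54 and 0.31), and the Rot call at 8 h ended when only its groups were fitted (0.055).

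The C/EBP members CEBPB and CEBPG, dimer partners of ATF4, rose with every compound, most with Phen and CCCP. CEBPB went from 6.20, 5.82 and 5.14 TPM to 23.3, 22.6 and 24.1 at 16 h of Phen (1.86 ± 0.083, adjusted p = 1.4e-32) and 20.7, 20.3 and 17.8 with CCCP (1.62 ± 0.083, adjusted p = 3.4e-28). Rot and 991 gave smaller rises, to 9.65, 11.03 and 12.9 TPM (0.85) and to 8.98, 10.4 and 10.2 TPM (0.69). CEBPG went from 16.5, 17.8 and 17.4 TPM to 52.9, 52.1 and 53.3 with Phen at 16 h (1.56 ± 0.046, adjusted p = 5.6e-44), 41.1, 40.9 and 43.8 with CCCP (1.24), 27.3, 26.8 and 27.7 with Rot (0.63) and 26.6, 26.9 and 26.5 with 991 (0.60). Neither gene had a treated library within the DMSO range at 16 h of any compound. The 4 h call of CEBPG with 991 (0.18) ended without replicate 3 (adjusted p = 0.06).

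ATF5, which acts in the mitochondrial stress response and is regulated like ATF4 at translation, went down instead. From 16.6, 16.5 and 15.4 TPM under DMSO it stood at 8.01, 7.46 and 7.28 at 4 h of CCCP (-0.999 ± 0.070, adjusted p = 2.5e-20), 8.24, 7.61 and 7.71 at 8 h of Phen (-0.95 ± 0.070, adjusted p = 3.3e-20) and 8.29, 8.63 and 9.83 at 16 h of 991 (-0.79 ± 0.070, adjusted p = 4.3e-16). Every treated library in those groups lay below every DMSO library. The fall was called at all 4 times with each of the 4 compounds. Over the 16 time courses of the series ATF5 was called lower in all 16, in 61 of 70 comparisons with DMSO, and higher in none. Its overlapping microRNA gene MIR4751, on the same strand, fell too at 16 h (-0.61 with Phen).

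NUPR1, a small stress-induced chromatin protein, climbed far from its low start. It stood at 1.47, 0.898 and 0.993 TPM under DMSO and at 2.27, 1.69 and 1.98 at 2 h of Phen (0.49 ± 0.13, adjusted p = 0.0013), 15.5, 15.6 and 11.5 at 8 h and 40.9, 38.1 and 41.2 at 16 h (4.28 ± 0.13, adjusted p = 2.5e-42). CCCP took it to 25.1, 23.1 and 25.4 at 16 h (3.60 ± 0.13, adjusted p = 1.3e-36), 991 to 10.5, 11.6 and 11.5 and Rot to 7.23, 8.58 and 8.12 (2.09 ± 0.13, adjusted p = 4e-22). It was not called at 2 h with 991, CCCP or Rot (0.041, 0.11 and 0.27). JDP2 was called higher with every compound by 4 h, although the 4 h call with 991 was lost under 6 other settings (adjusted p = 0.28 without replicate 3). From 1.04, 1.51 and 1.30 TPM it reached 13.8, 13.6 and 13.9 with Phen (2.70 ± 0.10, adjusted p = 7.7e-38), 6.17, 6.33 and 6.21 with CCCP (1.67), 4.39, 4.88 and 5.20 with Rot (1.35) and 3.68, 3.92 and 4.46 with 991 (1.14). All treated JDP2 and NUPR1 libraries at 16 h were above all DMSO libraries.

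TRIB3, a pseudokinase that binds ATF4 and DDIT3 and dampens their activity, fell early, and rose late with all compounds but Rot. From 16.5, 15.4 and 15.5 TPM it dropped to 10.8, 10.3 and 9.89 at 2 h of CCCP (-0.57 ± 0.068, adjusted p = 1.2e-10) and climbed to 56.1, 55.8 and 53.2 at 16 h (1.74 ± 0.068, adjusted p = 4.2e-35). With Phen it passed from 13.8, 13.2 and 11.9 at 2 h (-0.27, not called without replicate 3, adjusted p = 0.056) to 94.1, 91.5 and 91.1 at 16 h (2.47 ± 0.068, adjusted p = 1.4e-45). Rot lowered it at 2 h and 4 h (-0.44 and -0.33) and left it at 16.7, 18.5 and 17.7 TPM at 16 h, not called (0.15). With 991 it was lower at 4 h (-0.26) and slightly higher at 16 h (0.34 ± 0.068, adjusted p = 1.2e-05). With CCCP and Phen the early libraries lay below DMSO and the late ones above, while Rot showed the early fall without a called rise.

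**Figure D1:**
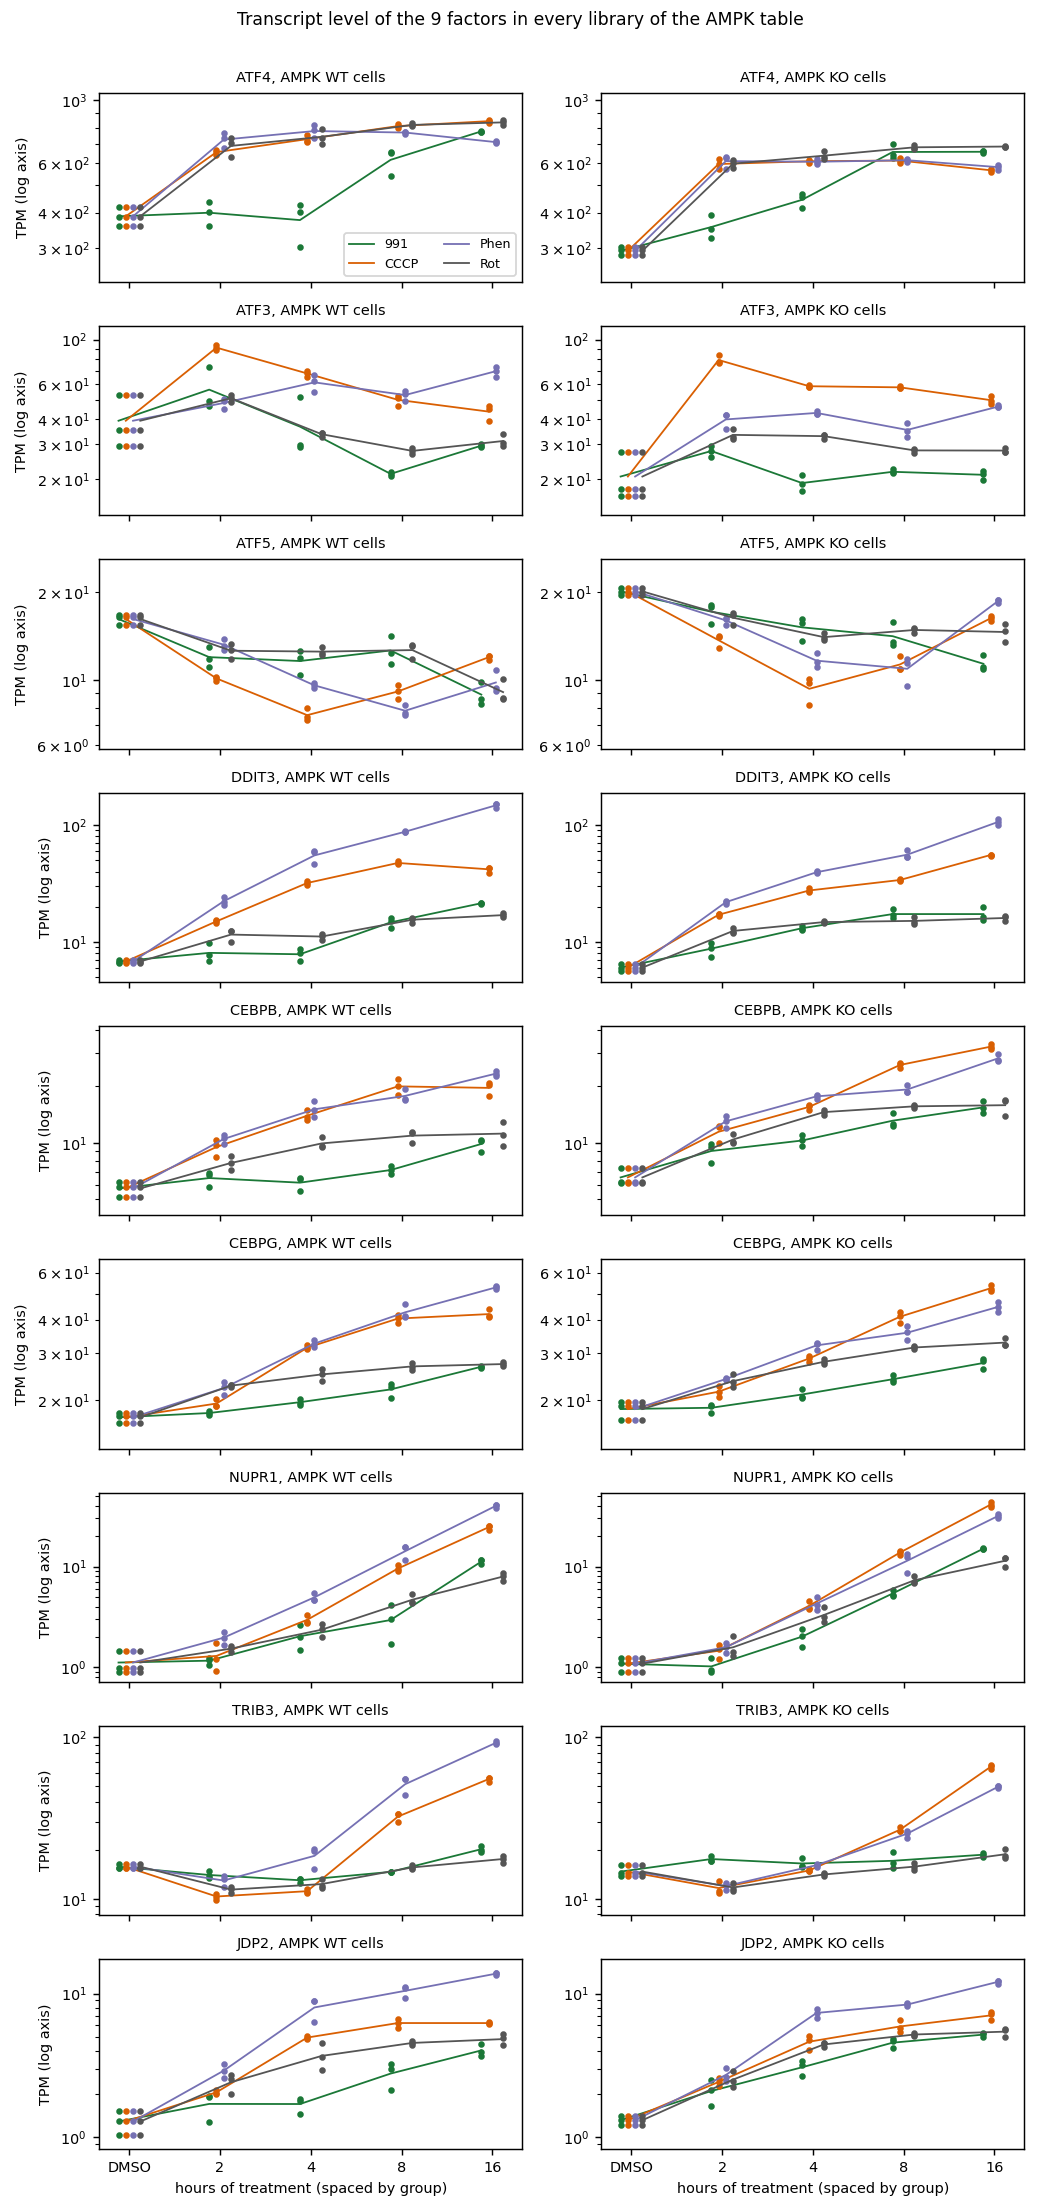
TPM (log axis) of the 9 genes in every library of the AMPK table against hours of treatment, WT on the left and KO on the right of each gene's pair of panels, coloured by compound. ATF4 steps up by 2 h with the poisons, DDIT3, NUPR1 and TRIB3 fan out by compound up to 16 h, and ATF5 lies below its DMSO level.

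Order of onset was read as the first time at which a gene was called higher than DMSO. A call needs a rise that is large beside its standard error, which in AMPK cells was 0.046 for CEBPG and 0.13 for NUPR1. The order of calls is therefore not only an order of rises. In AMPK WT cells at 2 h, Phen had raised 7 of the 9 genes, when 23.7% of all genes tested were called higher. CCCP had raised 6 (24.2% of all genes), Rot 6 (24.9%), and 991 only ATF3 (5.94%). With CCCP and Rot these were ATF4, ATF3, DDIT3, CEBPB, CEBPG and JDP2, and Phen added NUPR1. NUPR1 followed at 4 h with CCCP and Rot, and TRIB3 came last, at 4 h with Phen, 8 h with CCCP and 16 h with 991. The call for TRIB3 at 4 h of Phen ended without replicate 2 or replicate 3. For 991 the order was ATF3 at 2 h, CEBPG, NUPR1 and JDP2 at 4 h, ATF4, DDIT3 and CEBPB at 8 h, then TRIB3. Each rise called before 8 h was lost under 1 or more other settings (NUPR1 at 4 h with only its groups fitted, adjusted p = 0.061), as was CEBPB at 8 h (without replicate 3, adjusted p = 0.095). The rises held under every setting from 8 h for ATF4, DDIT3, CEBPG, NUPR1 and JDP2, and at 16 h for CEBPB and TRIB3. At 16 h the counts called higher were 8 with Phen (45.3% of all genes), 7 with CCCP (44.1%), 6 with Rot (36.2%) and 7 with 991 (41.9%).

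At 1 time or more, 8 of the 9 were higher with 991 (52.1% of all genes), 8 with CCCP (53%), 8 with Phen (52.3%) and 7 with Rot (44.4%). Lower at 1 time or more were 3 with 991 (39.1%), 2 with CCCP (49.6%), 2 with Phen (51.9%) and 3 with Rot (41.2%): ATF5 and TRIB3 in each case, and ATF3 with 991 and Rot. Calls with a rise of at least 1 on the log2 scale at 2 h were DDIT3 and ATF3 with CCCP, DDIT3 with Phen, and none with Rot or 991.

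Over all 16 time courses of the series the first call came at 2 h in 15 courses for ATF3, 11 for DDIT3, 9 for CEBPB, 8 for ATF4, 8 for JDP2 and 7 for CEBPG, but in 3 for NUPR1 and 2 for TRIB3. Some of these 2 h calls ended under 1 or more other settings. For ATF3 these were 991, Phen and Rot in AMPK WT cells, and 991 in AMPK KO and SA5 FNIP1 cells. For TRIB3 they were 991 in AMPK KO and TFEB+TFE3 WT cells, which were all of its 2 h calls. ATF4 and JDP2 lost theirs with 991 in the same cells, and DDIT3 with 991 in AMPK KO and siControl cells. CEBPB lost 991 in AMPK KO and ESRRA KO cells, and CEBPG lost CCCP in AMPK KO and 991 in TFEB+TFE3 WT cells. NUPR1 lost Phen in AMPK KO and 991 in TFEB+TFE3 WT cells, and kept Phen in AMPK WT cells. When onset needed a rise of at least 1 on the log2 scale, fewer genes had theirs at 2 h in 15 of the 16 courses. The sizes ran in another order. NUPR1 reached a rise of at least 1 on the log2 scale in 15 of the 16 courses, DDIT3 in 12, JDP2 in 9, ATF4 in 8, CEBPB in 7, TRIB3 in 5, and ATF3 and CEBPG in 4 each. ATF3 had its highest change at 2 h in 11 courses, whereas NUPR1 and TRIB3 had theirs at the last time in 13 and JDP2 in 12. DDIT3, NUPR1 and JDP2 were called higher at some time in all 16 courses, ATF3 and TRIB3 in 15, and ATF4, CEBPB and CEBPG in 14. ATF4 was also called lower at some time in 8 courses, TRIB3 in 8 and ATF3 in 4, while DDIT3, CEBPB and NUPR1 were called lower in none. Single changes ran from -0.35 to 4.25 for DDIT3, -0.094 to 4.34 for NUPR1, and -0.82 to 1.23 for ATF4.

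**Figure D2:**
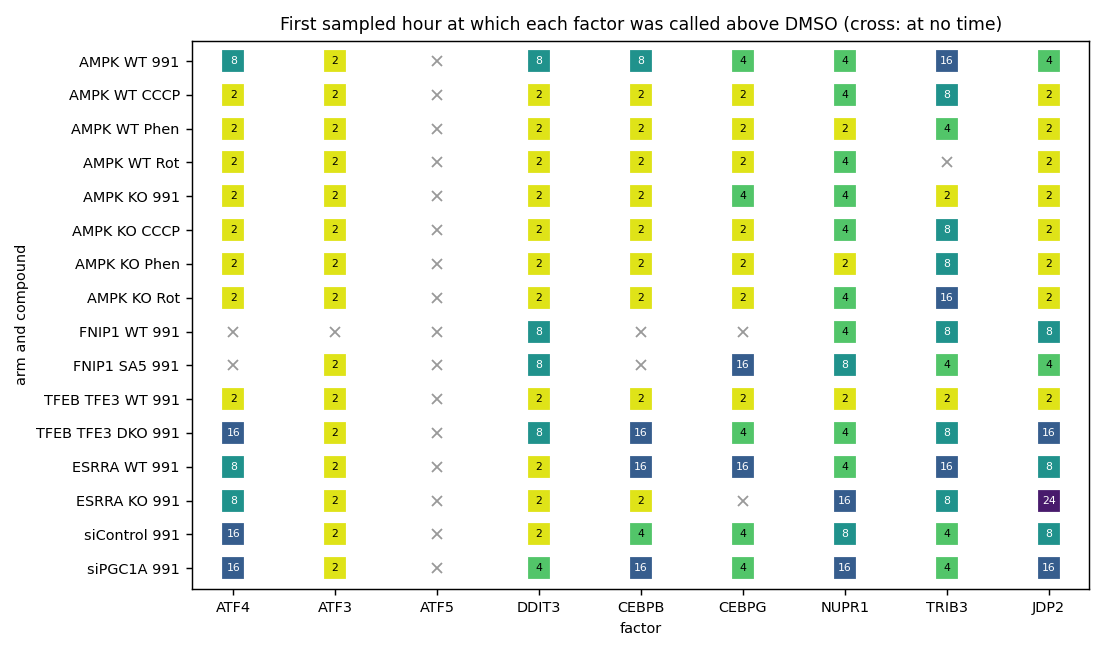
First hour at which each of the 9 genes was called higher than DMSO in each of 16 time courses, lighter cells being earlier and a cross meaning no such time up to 16 or 24 h. ATF5 has a cross in all 16 courses, and ATF3 was called by 2 h in 15.

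The 4 compounds were compared at matched times in AMPK WT cells, in 6 pairs and 24 contrasts adjusted together. Doses are not in the labels, so a difference may be one of dose. Phen and Rot, which both inhibit complex I, gave ATF4 levels whose difference, Rot minus Phen, did not pass at 2 h, 4 h or 8 h. At 2 h it was -0.076 ± 0.064, adjusted p = 0.36, with a 95% interval of -0.20 to 0.052. DDIT3 was lower with Rot at every time, with a difference of -0.90 at 2 h and -3.05 ± 0.081, adjusted p = 3e-45 at 16 h. At 16 h NUPR1 differed by -2.20 ± 0.13, adjusted p = 6.7e-24, and TRIB3 by -2.32 ± 0.068, adjusted p = 1.7e-42. JDP2 (-1.35), ATF3 (-1.14), CEBPB (-1.01) and CEBPG (-0.93) were also lower with Rot, and ATF4 was slightly higher (0.23). In all, 3 of the 9 differed at 2 h (14% of all genes) and 8 at 16 h (67%). Among these, the calls for TRIB3 at 2 h and ATF4 at 16 h ended under 1 or more other settings. The remaining gene at 16 h was ATF5 (-0.10 ± 0.070, adjusted p = 0.27, 95% interval -0.24 to 0.042).

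Rot and the uncoupler CCCP gave ATF4 a difference of -0.014 ± 0.064, adjusted p = 0.88 at 16 h, with a 95% interval of -0.14 to 0.11. DDIT3 (-1.25 ± 0.081, adjusted p = 2e-22), NUPR1 (-1.51) and TRIB3 (-1.59) were lower with Rot at 16 h, and ATF3 was lower at all 4 times, most at 4 h (-0.99 ± 0.12, adjusted p = 2.7e-10). The ATF3 call at 16 h ended without replicate 3 (adjusted p = 0.073). Of the 9, 5 differed at 2 h (19.8% of all genes) and 8 at 16 h (35.4%). The calls for CEBPB at 2 h and JDP2 at 16 h also ended under 1 or more other settings. Phen against CCCP differed in 7 at 2 h (15%), when ATF3 was -0.91 and DDIT3 0.54, and in all 9 at 16 h (67.3%), with DDIT3 at 1.79 ± 0.081, adjusted p = 4.5e-31. Here CEBPG, NUPR1 and JDP2 at 2 h and CEBPB at 16 h lost their calls under 1 or more other settings.

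Against 991 at 2 h, ATF4 was higher with CCCP (0.72), Phen (0.86) and Rot (0.79), and at 16 h none of these passed. Their differences then were 0.12 (95% interval -0.0077 to 0.25), -0.13 (-0.25 to 0.0013) and 0.11 (-0.022 to 0.23). At 2 h CCCP differed from 991 in 7 of the 9 (45.3% of all genes), Phen in 6 (44.9%) and Rot in 6 (42.3%). Of these, ATF5 and CEBPG with CCCP, NUPR1 with Phen, and CEBPB and JDP2 with Rot ended under 1 or more other settings. At 16 h the count was 8 for CCCP (33.7%), 7 for Phen (68.4%) and 3 for Rot (30.8%). Those 3, DDIT3 (-0.32 ± 0.081, adjusted p = 0.00072), NUPR1 (-0.45 ± 0.13, adjusted p = 0.0042) and TRIB3 (-0.19), were lower with Rot than with 991. The call for NUPR1 ended without replicate 3 (adjusted p = 0.059) and that for TRIB3 under 4 other settings, among them median-ratio scaling (adjusted p = 0.099).

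**Figure D3:**
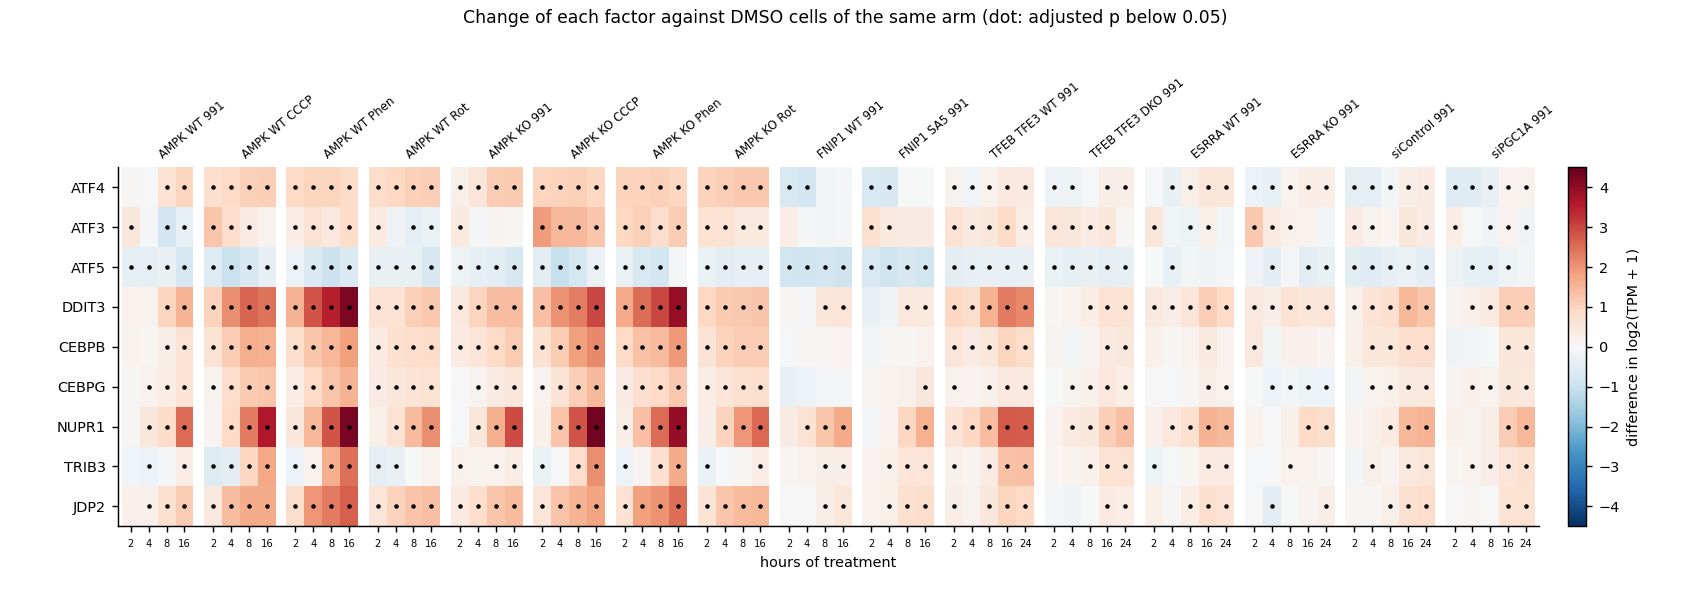
Log2 change in TPM + 1 against DMSO of the same arm for the 9 genes in 70 comparisons, ordered by arm, compound and time, with a dot where limma's adjusted p was under 0.05. The largest rises plotted are NUPR1 at 16 h of CCCP in AMPK KO cells (4.34) and, at 16 h of Phen in AMPK WT cells, NUPR1 (4.28) and DDIT3 (4.25), and ATF5 is below 0 in every column.

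AMPK is the energy-sensing kinase that 991 activates. Under DMSO 3 of the 9 genes differed between the arms (38.9% of all genes). ATF4 stood at 294, 301 and 283 TPM in KO libraries (-0.40 ± 0.064, adjusted p = 3.3e-07) and ATF3 at 27.5, 16.5 and 17.97 (-0.89 ± 0.12, adjusted p = 1.1e-08), both below every WT library, and ATF5 was higher at 20.02, 20.7 and 19.5 (0.30 ± 0.070, adjusted p = 0.00042). Without replicate 1 the count was 5. Against their own DMSO libraries, KO cells responded to all 4 compounds. At 2 h 6 of the 9 were higher with CCCP (18.6% of all genes), 7 with Phen (21.9%), 6 with Rot (21.7%) and 6 with 991 (4.28%). At 16 h the counts were 8 (39.6%), 8 (41.2%), 8 (35.3%) and 7 (34.8%) in that order. At 1 time or more they were 8 (49.9%), 8 (49.1%), 8 (44.6%) and 8 (43.5%). Lower at 1 time or more were 2 with CCCP (58.3%), 2 with Phen (55.8%) and 2 with Rot (43.8%), ATF5 and TRIB3 each time, and 1 with 991 (39.1%), ATF5.

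The calls at 2 h of 991 were the least secure: those for ATF4, ATF3, CEBPB, TRIB3 and JDP2 ended without replicate 2 or replicate 3, and that for DDIT3 with only its groups fitted (adjusted p = 0.16). With 991 in KO cells ATF4 was at 324, 392 and 350.2 TPM at 2 h (0.28), 414, 465 and 453 at 4 h (0.60) and 651, 659 and 661 at 16 h (1.16). The response at 4 h exceeded that of WT cells by 0.65 ± 0.091, adjusted p = 3.8e-07, and at 8 h by 0.50 ± 0.091, adjusted p = 3.8e-05. KO cells started lower in ATF4 (-0.40 under DMSO), so the levels themselves differ by less than these responses. At 16 h every KO library lay below every WT library in ATF4. DDIT3 was at 12.98, 12.6 and 13.7 TPM at 4 h in KO and 6.80, 8.62 and 8.10 in WT cells, a difference of responses of 0.83 ± 0.11, adjusted p = 3.8e-07. CEBPB responded more in KO cells at 4 h, 8 h and 16 h (0.49, 0.62 and 0.43). JDP2 did so at 4 h and 8 h (0.57 and 0.55), TRIB3 at 2 h and 8 h (0.41 and 0.31) and NUPR1 at 8 h (0.76). Differences were also called for TRIB3 at 4 h (0.42) and ATF3 at 8 h (0.92). There the gene was called lower in WT cells and was not called in KO cells. At 16 h CEBPB was the only one of the 9 called. At 1 time or more, 7 of the 9 responses differed (31.8% of all genes). Of the 14 single calls, 3 held under every setting tried, DDIT3 at 4 h and ATF4 and CEBPB at 8 h. In a fit of only the 4 groups compared, ATF4 at 4 h had an adjusted p = 0.071, and every other call ended in that fit or without a replicate.

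With CCCP, ATF3 responded more in KO cells at all 4 times, by 1.08 ± 0.17, adjusted p = 1.6e-06 at 16 h, where its libraries stood at 47.6, 52.3 and 49.4 TPM in KO and 39.3, 46.6 and 45.1 in WT cells. KO cells started lower in ATF3, so the levels themselves differ by less than the responses. At 16 h of CCCP NUPR1 (0.74 ± 0.19, adjusted p = 0.0018), DDIT3 (0.55) and CEBPB (0.54) also responded more. The TRIB3 difference at 4 h, KO minus WT, was 0.49 ± 0.097, adjusted p = 5.3e-05, and held under every setting. There TRIB3 was called lower in WT cells and was not called in KO cells. The other direction was called for CEBPG at 4 h (-0.22) and DDIT3 at 8 h (-0.32). Over all times 6 of the 9 differed (51.3% of all genes). With Phen 4 of the 9 differed (17%), with smaller responses in KO cells for TRIB3, DDIT3 and CEBPG. TRIB3 reached 26.4, 25.6 and 23.9 TPM at 8 h in KO and 43.6, 54.96 and 55.004 in WT cells (-0.88 ± 0.10, adjusted p = 4.5e-10), and the gap at 16 h was -0.79 ± 0.10, adjusted p = 6.5e-09. DDIT3 and CEBPG were lower at 8 h (-0.49 and -0.34) and 16 h (-0.32 and -0.33), and ATF5 was the exception, higher at 16 h (0.56 ± 0.10, adjusted p = 3.4e-05). Rot gave 2 (3.85%): DDIT3 at 4 h (0.53) and ATF3 at 4 h, 8 h and 16 h (0.89 ± 0.17, adjusted p = 0.0022 at 8 h), and all 4 of these calls ended without replicate 2 and without replicate 3.

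The calls that ended under another setting were, for CCCP, ATF3 at 2 h and 4 h (without replicate 3, adjusted p = 0.26 and 0.074), DDIT3 (lower) and NUPR1 (higher) at 8 h, CEBPG at 4 h (lower) and 16 h (higher) and TRIB3 (higher) at 16 h, and for Phen DDIT3 and CEBPG at both times. For the ATF3 response to Rot at 8 h the adjusted p was 0.13 without replicate 2, 0.55 without replicate 3 and 0.29 with only its groups fitted.

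**Figure D4:**
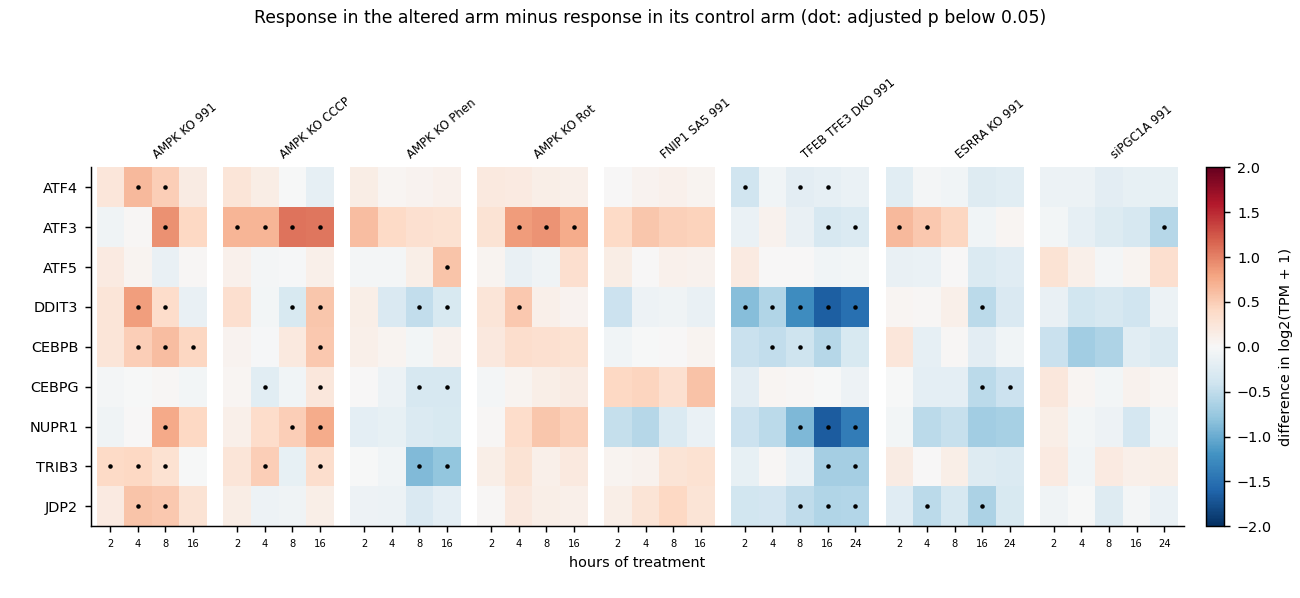
Difference of the log2 responses, altered arm minus control arm, for the 9 genes in 35 comparisons, with a dot where limma's adjusted p was under 0.05. With 991 the AMPK KO columns lie mostly above 0 and the TFEB+TFE3 DKO columns mostly below 0 for DDIT3, NUPR1, TRIB3 and JDP2, and the FNIP1 columns hold no dot.

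The response to 991 was also measured in the control arms of the other tables, each normalized on its own, so only changes within a table are set side by side. NUPR1 was called higher in all 5 control arms at 16 h, by 2.54 in AMPK WT, 2.76 in TFEB+TFE3 WT, 1.71 in WT FNIP1, 1.58 in ESRRA WT and 1.51 in siControl cells. DDIT3 rose as well, by 1.52, 2.34, 0.58, 1.10 and 1.503 in the same order, of which the call in WT FNIP1 cells ended without replicate 2 or replicate 3 and under either other scaling (adjusted p = 0.29 with median ratios). ATF4 rose at 16 h by 1.00 in AMPK WT, 0.47 in TFEB+TFE3 WT, 0.58 in ESRRA WT and 0.30 in siControl cells, and was -0.078 in WT FNIP1 cells, not called. Before that it fell, at 4 h, in WT FNIP1 (-0.82 ± 0.066, adjusted p = 2.1e-08), siControl (-0.43), ESRRA WT (-0.34) and TFEB+TFE3 WT cells (-0.17, not called after quantile normalization, adjusted p = 0.18). The AMPK WT arm showed no such fall (-0.056).

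TFEB and TFE3, master regulators of lysosome genes, were both removed in the DKO cells. In TFEB+TFE3 WT cells 991 raised 8 of the 9 at 1 time or more (54.4% of all genes). All 8 were first called at 2 h, when 11.6% of all genes were higher. At 16 h 8 were higher (41.1%), and 2, ATF4 and ATF5, were lower at 1 time or more (30.2%). The 2 h calls of ATF4, CEBPG, NUPR1, TRIB3 and JDP2 each ended without 1 or more replicates, and those of ATF3, DDIT3 and CEBPB held under every setting. DDIT3 rose from 6.63, 6.07 and 8.16 TPM to 14.5, 12.8 and 15.3 at 2 h and 41.2, 37.3 and 38.4 at 16 h (2.34 ± 0.10, adjusted p = 1.5e-17). In DKO cells it began at 20.9, 19.5 and 17.5 TPM and stood at 21.05, 22.9 and 18.2 at 2 h (0.10, not called) and 31.99, 30.3 and 32.7 at 16 h (0.69 ± 0.10, adjusted p = 1.7e-06). The DKO libraries started above the WT libraries and, at 16 h, lay below them. The difference of responses was -1.65 ± 0.14, adjusted p = 3e-09 at 16 h.

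NUPR1 stood at 3.12, 3.26 and 4.19 TPM under DMSO and 30.9, 29.8 and 27.6 at 16 h in WT, and at 6.74, 5.05 and 5.57 and 15.4, 13.1 and 12.01 in DKO cells. Its responses were 2.76 ± 0.14, adjusted p = 1.2e-15 and 1.10 ± 0.14, adjusted p = 2.9e-07, and they differed by -1.66 ± 0.20, adjusted p = 1.7e-06. TRIB3 (-0.67 ± 0.092, adjusted p = 1.3e-05), JDP2 (-0.60), CEBPB (-0.57), ATF3 (-0.34) and ATF4 (-0.18) also responded less at 16 h. CEBPG and ATF5 did not pass at any time (-0.015 ± 0.072, adjusted p = 0.93, and -0.067 ± 0.10, adjusted p = 0.72 at 16 h). In all, 7 of the 9 responses differed at 1 time or more (27% of all genes). DDIT3 and NUPR1 held at 8 h, 16 h and 24 h under every setting, TRIB3 at 16 h and 24 h and JDP2 at 24 h. The other differences ended without a replicate or with only the 4 groups fitted, CEBPB at 16 h among them.

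DKO cells under 991 had 8 of the 9 higher at 1 time or more (48.8%), 8 at 16 h (35.7%) and 2 lower at 1 time or more (25.6%). First calls were for ATF3 at 2 h, CEBPG and NUPR1 at 4 h, DDIT3 and TRIB3 at 8 h, and ATF4, CEBPB and JDP2 at 16 h. Those of NUPR1 and CEBPG at 4 h and of DDIT3 and TRIB3 at 8 h were lost under 1 or more other settings, and that of JDP2 at 16 h under quantile normalization (adjusted p = 0.09). Under DMSO 8 of the 9 differed between DKO and WT cells, as did 51.3% of all genes, whose median difference was 0.11. All 8 were higher in DKO cells. The largest of these were DDIT3 (1.36 ± 0.10, adjusted p = 3.7e-12) and ATF3, at 64.4, 65.2 and 65.6 against 32.1, 32.5 and 35.4 TPM (0.95 ± 0.060, adjusted p = 2.6e-13). NUPR1 (0.59), CEBPB (0.56) and JDP2 (0.35) followed. ATF5, TRIB3 and ATF4 (0.29, 0.20 and 0.14) were no longer called under median-ratio scaling, where ATF4 had a difference of 0.0090. The smaller responses of DKO cells thus start from higher DMSO levels.

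**Figure D5:**
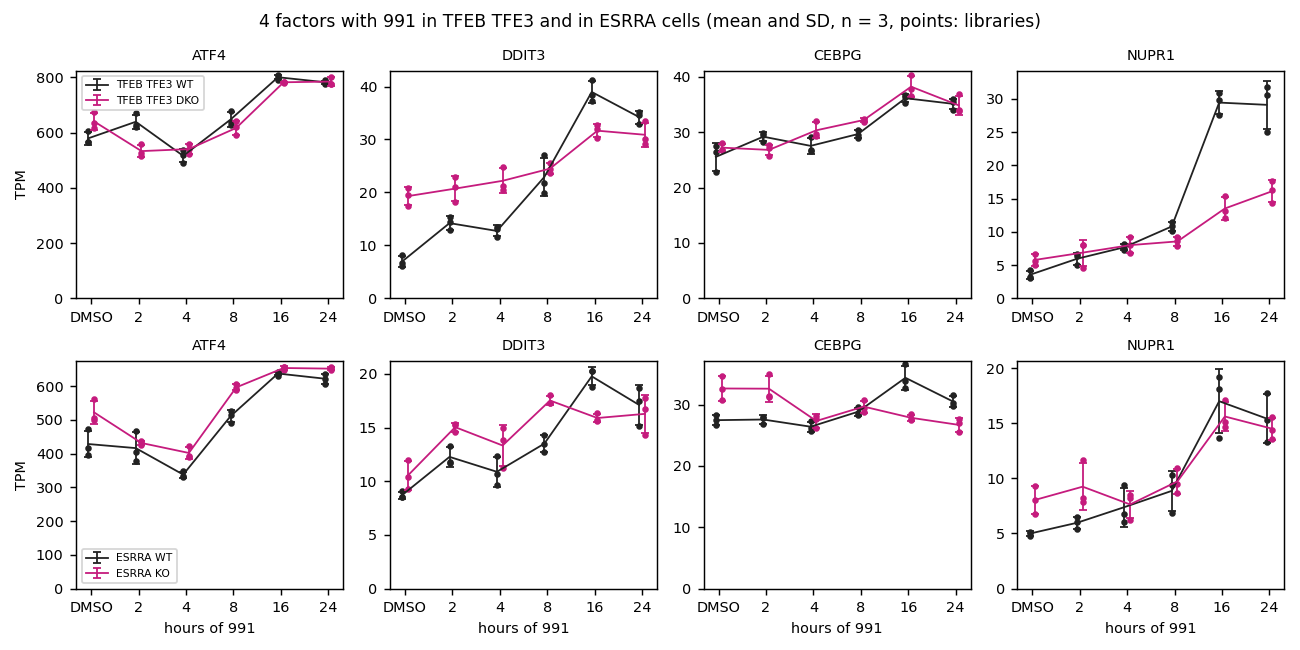
TPM of ATF4, DDIT3, CEBPG and NUPR1 against hours of 991 in the TFEB+TFE3 WT and DKO arms and the ESRRA WT and KO arms, points for libraries and lines for the mean with SD (n = 3). DDIT3 and NUPR1 climb less in DKO than in WT cells, and CEBPG rises in ESRRA WT and falls in ESRRA KO cells at 16 h.

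ESRRA is a nuclear receptor that drives genes of mitochondrial metabolism. CEBPG separated its arms: in WT cells it went from 27.5, 26.7 and 28.3 TPM to 33.8, 36.6 and 32.8 at 16 h (0.31 ± 0.047, adjusted p = 3.8e-06), and in KO cells from 30.7, 34.7 and 32.5 to 27.4, 28.5 and 27.7 (-0.22 ± 0.047, adjusted p = 0.00039). KO libraries began above WT libraries and ended below them, a difference of -0.53 ± 0.066, adjusted p = 7.5e-06, which held under every setting tried. At 16 h JDP2 (-0.63 ± 0.14, adjusted p = 0.0086) and DDIT3 (-0.54 ± 0.13, adjusted p = 0.021) also responded less in KO cells, and ATF3 responded more at 2 h (0.66 ± 0.12, adjusted p = 0.0052); each of these calls ended without replicate 1 and without replicate 3. In total 4 of the 9 differed (8.46% of all genes). WT cells had 8 of the 9 higher at 1 time or more (48.9%) and 8 at 16 h (31.2%), with 4 lower at 1 time or more (33.1%). KO cells had 7 (51.9%), 3 at 16 h (31.5%), namely ATF4, DDIT3 and NUPR1, and 4 lower (38.7%). Under DMSO 4 of the 9 differed between the arms (21.5% of all genes), and all 4 were higher in KO cells. They were NUPR1 (0.59 ± 0.15, adjusted p = 0.0064), JDP2 (0.38), ATF4 (0.29) and CEBPG (0.24), of which ATF4 and CEBPG held under every setting.

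PGC1a (PPARGC1A) is a coactivator of ESRRA, and its RNA was below the filter here. In siControl cells 8 of the 9 were higher at 1 time or more (56% of all genes), 8 at 16 h (44.6%), and 2, ATF4 and ATF5, lower at 1 time or more (20.5%). In siPGC1a cells the counts were 8 (55%), 8 (39.2%) and 3 (22.3%), and ATF4 at 16 h, called higher by 0.14, was -0.019 under median-ratio scaling. A single response differed between these arms (0.283% of all genes), that of ATF3 at 24 h. Its libraries went from 38.5, 41.2 and 48.1 to 55.4, 57.7 and 50.6 TPM in siControl (0.35) and from 68.2, 62.3 and 72.6 to 56.2, 59.1 and 59.9 in siPGC1a cells (-0.21), a difference of -0.56 ± 0.089, adjusted p = 0.0088. It ended without replicate 1 (adjusted p = 0.45). Under DMSO 4 of the 9 differed between the arms (24.2% of all genes), and all 4 were higher with the knockdown. They were DDIT3, at 26.2, 23.7 and 24.7 against 11.8, 12.8 and 16.2 TPM (0.83 ± 0.086, adjusted p = 2.1e-08), ATF3 (0.66 ± 0.063, adjusted p = 4.9e-09), CEBPB (0.51) and ATF4 (0.32). The CEBPB call ended without replicate 1 (adjusted p = 0.06).

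FNIP1 links AMPK to the lysosomal signalling that frees TFEB, and SA5 removes the AMPK sites. None of the 9 responses to 991 differed between SA5 and WT FNIP1 cells in the limma test, where 0.0225% of all genes did. At an unadjusted p under 0.05 at 1 time or more there were 5 of the 9, and 14.3% of all genes. Quantile normalization gave 1 adjusted call, and leaving out the outlying libraries gave 0. NUPR1 went from 3.43, 4.45 and 5.33 TPM to 16.6, 17.03 and 15.9 at 16 h in WT FNIP1 (1.71 ± 0.15, adjusted p = 4.9e-08) and from 5.22, 4.11 and 3.13 to 15.6, 14.3 and 12.9 in SA5 cells (1.59 ± 0.15, adjusted p = 9.5e-08). Without the outlying DMSO library the SA5 change was 1.73 (adjusted p = 7e-09), and without the 8 h library as well it was 1.73 (adjusted p = 1.2e-09). In WT FNIP1 cells 4 of the 9 were higher at 1 time or more (21.1% of all genes) and 4 at 16 h (11.6%), DDIT3 (0.58), NUPR1, TRIB3 (0.29) and JDP2 (0.53), and 2, ATF4 and ATF5, were lower (7.19%). In SA5 cells 6 were higher (48.4%), 5 at 16 h (39.2%), and 2 lower (7.03%). Without the outlying DMSO library 5 were higher in SA5 cells (32.1%) and 4 at 16 h (22.3%), and the 4 h calls of ATF3, TRIB3 and JDP2 ended (adjusted p = 0.27, 0.11 and 0.16). In that fit WT FNIP1 cells had 5 higher (37.5%) and 4 at 16 h (23.3%). Without both outlying libraries 6 were higher in SA5 cells (46%) and 5 at 16 h (34.5%), beside 5 (51.5%) and 4 (34.2%) in WT FNIP1 cells. The counts higher at 1 time or more fell to 1 and 4 without replicate 2 and to 2 and 3 without replicate 3, in WT FNIP1 and SA5 in that order.

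At 16 h in SA5 cells DDIT3 changed by 0.43 with all libraries, by 0.71 without both outlying ones (adjusted p = 1e-05) and by -0.026 under median-ratio scaling, which turns its direction. CEBPG, at 0.49, was 0.17 (adjusted p = 0.19) without the DMSO library and 0.17 (adjusted p = 0.048) without both. With only the groups compared in the fit, the NUPR1 call at 16 h ended as well (adjusted p = 0.22). Under DMSO 2 of the 9 differed between SA5 and WT FNIP1 (10.3% of all genes), ATF4 at 838, 701 and 665 against 548, 590.5 and 574 TPM (0.36 ± 0.066, adjusted p = 0.0027) and ATF3 (-0.65 ± 0.16, adjusted p = 0.016). Without both outlying libraries these were 0.26 (adjusted p = 0.00011) and -0.33 (adjusted p = 0.0031). Leaving out replicate 2 or replicate 3 of both arms ended both calls.

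Genes that lie downstream in the same pathway were counted from lists. Of 50 integrated stress response effectors tested in the AMPK table, among them genes of amino acid enzymes, transporters and tRNA synthetases, Phen at 16 h in WT cells left 48 higher and 2 lower (median 1.28, all genes 0.073). CCCP left 48 higher and 1 lower (median 0.94, all genes 0.091), Rot 45 higher and 1 lower (median 0.58, all genes 0.025) and 991 43 higher and 2 lower (median 0.45, all genes 0.071). In KO cells 991 left 44 higher and 1 lower (median 0.80, all genes 0.029). In the same order, 45.3%, 44.1%, 36.2%, 41.9% and 34.8% of all genes were higher. Those lower were 34.9%, 26.6%, 29.2%, 26.9% and 27.1%. INHBE, a secreted activin subunit gene, rose most with Phen, to 25.2 ± 1.32 TPM, log2 change 4.56 ± 0.078, adjusted p = 7.3e-59, followed by the mTORC1 brake DDIT4, at 221 TPM. PCK2, a mitochondrial gluconeogenic enzyme gene, reached 26.5 TPM with 991. CBS and ALDH18A1 went the other way with Phen (-0.32 and -0.17), as with 991.

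Among 16 genes for eIF2 kinases, phosphatases and the exchange factor, Phen left 9 higher and 6 lower (median 0.21, all genes 0.073). Of all genes, 45.3% were higher and 34.9% lower at 16 h of Phen in AMPK WT cells. PPP1R15A, the inducible phosphatase subunit that reverses eIF2 phosphorylation, rose to 57.1 ± 1.52 TPM, log2 change 1.68 ± 0.10, adjusted p = 1.3e-26, and the kinase gene EIF2AK3 (PERK) to 11.01 TPM (1.37). Exchange factor genes EIF2B1 (-0.66) and EIF2B5 (-0.57) fell. With 991 the kinase gene EIF2AK4 (GCN2) rose (0.79), as did OMA1 (0.67). Of 39 other bZIP factors Phen left 26 higher and 9 lower (median 0.44, all genes 0.073). The counts with 991 were 18 higher and 17 lower (median 0.048, all genes 0.071), when 41.9% of all genes were higher and 26.9% lower. ATF2 (1.84) and BACH2 (1.74) rose with Phen, and FOSB (-2.62) and FOS (-1.78) fell.

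Of 16 genes of the other unfolded protein response branches, Phen left 8 higher and 6 lower (median 0.11, all genes 0.073). These counts were near the shares of all genes, 45.3% higher and 34.9% lower. XBP1 (1.18) and EDEM1 (0.97) rose while CRELD2 (-1.18) and SDF2L1 (-1.06) fell, and with 991 the chaperone gene HSPA5 (BiP) fell (-0.40). Among 7 death genes linked to CHOP, CHAC1, a glutathione-degrading enzyme gene, rose to 32.6 ± 1.2 TPM, log2 change 3.08 ± 0.16, adjusted p = 3e-29, and BBC3 (PUMA) to 39.6 TPM (2.66), while BCL2L11 (BIM) fell (-0.35). Phen left 5 higher and 1 lower of these 7 (median 0.67, all genes 0.073), when 45.3% of all genes were higher and 34.9% lower. The 3 higher and 2 lower with 991 (median -0.048, all genes 0.071) were near the shares of all genes, 41.9% and 26.9%. Of 5 relatives and binding partners of TRIB3, RFWD2 (COP1), a ubiquitin ligase gene, rose with Phen (0.86), AKT2 fell (-0.31), and TRIB1 fell with 991 (-0.87).

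The effector list under 991 at 16 h had 42 higher and 2 lower of 49 (median 0.48, all genes 0.13) in TFEB+TFE3 WT and 36 higher and 1 lower of 49 (median 0.27, all genes 0.11) in DKO cells. In ESRRA WT cells it had 40 higher and 1 lower of 47 (median 0.33), and in ESRRA KO cells 11 higher and 22 lower of 47 (median -0.087), beside all-gene medians of 0.072 and 0.084. Of all genes, 41.1% and 35.7% were higher in TFEB+TFE3 WT and DKO cells, and 31.2% and 31.5% in ESRRA WT and KO cells. Lower at 16 h were 17.9% and 12.5% of all genes in TFEB+TFE3 WT and DKO cells. In ESRRA WT and KO cells 33.1% and 38.7% were lower at 1 time or more, which the share at 16 h cannot exceed. In WT FNIP1 cells the list had 14 higher and 1 lower of 48 (median 0.17, all genes 0.068). Of all genes there, 11.6% were higher and 4.87% lower. In SA5 the list had 38 higher and 0 lower of 48 (median 0.77, all genes 0.36), when 39.2% of all genes were higher and 5.76% lower. Without the outlying SA5 library under DMSO the SA5 list had 32 higher and 0 lower (median 0.38, all genes 0.10) and the WT FNIP1 list 22 higher and 5 lower (median 0.17), with 22.3% and 23.3% of all genes higher. In siControl cells the list had 37 higher and 3 lower of 48 (median 0.42, all genes 0.17) and in siPGC1a 34 higher and 5 lower of 48 (median 0.26, all genes 0.14). There 44.6% and 39.2% of all genes were higher at 16 h, and 20.5% and 22.3% were lower at 1 time or more, in that order. Median-ratio scaling moved the median of all genes by more than 0.1 in SA5 FNIP1 at all times, WT FNIP1 at 4 h, TFEB+TFE3 cells at 16 h and 24 h, siControl from 4 h and siPGC1a at 16 h and 24 h, so small changes in those groups depend on the scaling.

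The genes most like each factor over the 34 groups of the AMPK table were ranked by Pearson correlation of mean log2(TPM + 1), given as a description, since groups share libraries, arms and DMSO. DDIT3 was closest to LOC285074, CCNB1IP1 and SLC38A2 (lowest r 0.936), NUPR1 to EIF4EBP1, ALDH1L2 and SARS (lowest r 0.947), and TRIB3 to BEST1, FLJ46906 and AKNA (lowest r 0.940). For CEBPG they were VEGFA, XBP1 and MTHFD2 (lowest r 0.965), for CEBPB CDC42EP1, VEGFA and STC2 (lowest r 0.957), and for JDP2 TMEM268, VLDLR and SPOP (lowest r 0.952). ATF4 had PRIM2, PKP4 and HNRNPLL (lowest r 0.886), and ATF3 NFIL3, IRF2BP2 and RPL10 (lowest r 0.796). ATF5 was closest to MIR4751 (0.92), which lies inside it, then SURF4 and IMPDH1 (0.88 and 0.82). Among the 9 themselves, CEBPB with CEBPG (0.93), CEBPG with JDP2 (0.93) and DDIT3 with JDP2 (0.92) were closest, ATF4 with TRIB3 was at 0.22, and ATF5 was negative with each of the other 8.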

How the data were processed

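Poly(A) RNA of the 240 libraries was sequenced, and the authors deposited 5 tables of TPM per RefSeq transcript, 1 per gene symbol. The submitters' processing notes name FastQC, STAR, HOMER and GRCh38, with no versions. Read counts are not in these tables, so depth is unknown. A TPM table carries no count model, and the values were tested as log2(TPM + 1) with limma 3.58.1 in R 4.3.3, with a mean for each group over all libraries of a table and a variance trend. Genes at a TPM of 1 or above in 3 or more libraries were tested. Benjamini-Hochberg adjustment ran over all genes in each comparison, and over 24 comparisons together for compound pairs. Tables were never pooled. The script was tested on simulated data, and tables were read with pandas 2.3.3 under Python 3.11.15 and drawn with matplotlib 3.10.9.

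The 9 genes and the pathway lists were chosen with earlier results of these data known. List genes are named from the up to 2 largest called rises and 2 largest called falls of each list at 16 h of Phen and of 991 in AMPK WT cells, and genes of like pattern are the 3 with the highest correlation. Alternatives were median-ratio and quantile scaling, a pseudocount of 0.1, no filter, a replicate block, each replicate left out, only the compared groups in the fit, and the outlying SA5 libraries left out, of which the 8 h library was chosen after seeing the data.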

Additional observations from a re-analysis of the deposited data

Results flagged for a closer look

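In 6 comparisons both arms were called against their own DMSO libraries, in opposite directions, and the difference itself passed in limma with Benjamini-Hochberg adjustment. ATF3 under Rot fell by 0.444 in AMPK WT and rose by 0.45 in AMPK KO cells at 8 h, a difference of 0.895 ± 0.175 (adjusted p = 0.0022). At 16 h the values were -0.288 and 0.448, a difference of 0.735 ± 0.175 (adjusted p = 0.011). ATF4 at 2 h of 991 was 0.142 in TFEB+TFE3 WT and -0.264 in DKO cells, a difference of -0.406 ± 0.0549 (adjusted p = 0.00015). CEBPG was 0.313 in ESRRA WT and -0.22 in ESRRA KO cells at 16 h of 991, differing by -0.532 ± 0.0664 (adjusted p = 7.5e-06). At 24 h it was 0.147 and -0.279, differing by -0.426 ± 0.0664 (adjusted p = 0.00037). ATF3 at 24 h of 991 was 0.355 in siControl and -0.209 in siPGC1a cells, differing by -0.563 ± 0.0889 (adjusted p = 0.0088). Of these, CEBPG at 16 h alone held under every setting tried. Groups of 3 were too small for a test of single outlying libraries.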

How the results depend on the processing

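Of 482 calls against DMSO for the 9 genes, 108 were lost under at least 1 other setting, as were 45 of 67 differences of responses, 8 of 21 differences under DMSO and 22 of 164 differences between compounds. Depth is unknown for these TPM tables, and 3 libraries per group limit the precision. The causes of the changes below were not tested.

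Counts of the 9 genes moved by over 1.5 times as follows. Differences under DMSO between AMPK arms went from 3 to 5 under quantile normalization and were 3 to 5 without a replicate. Differences of the response to 991 between AMPK arms went from 7 to 3, and to Rot from 2 to 1, with only the compared groups fitted. Leaving out a replicate gave 0 to 3 for Rot and 2 to 5 for Phen, against 2 and 4. Genes raised in SA5 FNIP1 went from 6 to 3 under median-ratio scaling, 0 with only the compared groups, and 3 to 6 without a replicate, and in WT FNIP1 from 4 to between 1 and 5. Differences of responses between FNIP1 arms went from 0 to 1 under quantile normalization. Those under DMSO went from 2 to 1 under quantile normalization, 0 with only the compared groups and 0 to 2 without a replicate. Differences under DMSO in TFEB+TFE3 cells went from 8 to 5 under median-ratio scaling. In ESRRA cells response differences went from 4 to 2 with only the compared groups and 1 to 5 without a replicate, and those under DMSO from 4 to between 2 and 4. The siPGC1a difference went from 1 to 0 with only the compared groups and 0 to 1 without a replicate. When onset needed a log2 change of at least 1, the number of genes with onset at 2 h moved in 15 time courses and stayed the same in 1.

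Leaving out a replicate turned directions: ATF4 in AMPK WT at 4 h of 991 ranged from -0.1656 to 0.1494 (4 h minus 2 h -0.224 to 0.1174), DDIT3 4 h minus 2 h there from -0.1523 to 0.1864, ATF3 in Rot minus 991 at 4 h from -0.2111 to 0.1799, and CEBPG in SA5 at 2 h from -0.252 to 0.2789 (-0.2513 without both outlying libraries). Median-ratio scaling turned CEBPG in SA5 at 2 h (-0.2999) and 4 h (-0.2626), TRIB3 at 4 h (-0.1737), DDIT3 at 16 h (-0.02642) and ATF4 in siPGC1a at 16 h (-0.01888). Quantile normalization turned TRIB3 (-0.04465) and JDP2 (-0.2517) in SA5 at 4 h, and ATF4 there at 8 h (0.2169) and 16 h (0.257).

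Libraries share only a replicate number: same-numbered libraries had a mean correlation of deviations of 0.0861 in the AMPK table and 0.00503 to 0.0203 in the others, and 75 of the AMPK libraries, 15 of 30 in the FNIP1 table and 16, 21 and 20 of 36 in the TFEB+TFE3, ESRRA and PGC1a tables correlated best with their own number. With a replicate block no count moved by over 1.5 times, and DDIT3 at 2 h in siControl cells lost its call (0.255, adjusted p = 0.058).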
